A study of Mus musculus with 20 samples.

Results

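The citric acid cycle oxidises acetyl groups in the mitochondrial matrix and passes their electrons to the respiratory chain. In the fasting liver it works beside ketone body synthesis, which also draws on acetyl-CoA, and beside gluconeogenesis, which draws oxaloacetate and malate out of the cycle. A set of 9 genes of the cycle is described here, named in the order of their reactions: Cs, Idh3a, Idh2, Ogdh, Suclg1, Suclg2, Sucla2, Fh1 and Mdh2. They were chosen by name, as the probe sets whose symbol in the platform annotation is one of these names, and they are 9 of the 19505 genes that the annotation names on the array. Each of the 9 had 1 probe set. The rule uses names and no measured value, but the names were chosen with earlier results of these data known.

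Livers of 20 mice were measured, each on 1 Affymetrix array, with 5 mice in each of 4 groups. The groups were fasted Mcl1(L-/-), fed Mcl1(L-/-), fasted WT and fed WT. Fasted mice of either genotype spent 48 h alone in wire-bottom cages with water and no food, and fed mice had free access to food. Mcl1(L-/-) mice carried the Mcl1(F/F) allele, a floxed form of the gene for the anti-apoptotic mitochondrial protein MCL-1, and received AAV-LP1-Cre, an adeno-associated virus that expresses Cre recombinase from the liver promoter LP1. The submitters attach the same virus text to the WT samples, while the sources used here give neither the treatment of WT mice nor any age or sex. Deletion reaches cells in which LP1 is active, so other cells of the liver keep Mcl1. The labels call the 5 mice of a group biological replicates.

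The values are log2 signals, on which a difference of 1 is a 2-fold change in signal. A level is comparable between livers for the same gene but not between genes, because probes differ in brightness. The mean signal of each of the 9 genes was above that of most probe sets on the array, from the percentile 72.4 for Sucla2 to 97.6 for Fh1. Differences were tested with limma over all 22206 probe sets and called at an adjusted p under 0.05 (Benjamini-Hochberg). A gene is said to have risen or fallen only where it was called.

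Mcl1 itself averaged 6.14 ± 0.25 in fasted Mcl1(L-/-) livers and 7.28 ± 0.09 in fasted WT livers (log2 signal, SD, n = 5 each), with no overlap (limma adjusted p = 4.47e-06). Arrays of 1 group correlated at 0.979 to 0.990 over all probe sets. On the first principal component (34.2% of the variance) fasted Mcl1(L-/-) replicates 3 and 4 lay at 18.3 and 27.0, apart from the other 3 livers of the group at 42.1 to 46.8. Fed livers of both genotypes lay at -26.1 to -20.5, so these 2 were the fasted Mcl1(L-/-) livers nearest to the fed ones. Calls that change without these 2 livers, and called values that move by over 1.5 times, are given beside the results. Because the 2 are set apart by these same data, along an axis that separates fasted from fed livers, fits without them are no independent support. Summed linear signals of 12 hepatocyte markers lay between 37365 and 42286 in all 20 livers. Such a sum follows its brightest probe sets, and single markers did change. With fasting 2 of the 12 were called higher and 2 lower in Mcl1(L-/-) livers (log2 differences -1.49 to 0.54). In WT livers 1 was called higher and 1 lower (-1.93 to 0.47). Summed signals of 10 stellate cell markers were 1417 to 1931 in fasted Mcl1(L-/-) livers, above the 982 to 1281, 946 to 1238 and 807 to 1188 of fed Mcl1(L-/-), fasted WT and fed WT livers. The 10 markers did not rise as a list. With fasting in Mcl1(L-/-) livers 4 of 10 differences were positive (median -0.25), with 2 called higher and 2 lower. Between genotypes in the fast 7 of 10 were positive (median 0.18), with 1 called higher and 0 lower. Summed signals of 11 Kupffer cell markers were 431 to 816 in fasted Mcl1(L-/-) livers and 329 to 420 in fasted WT livers, and 599 to 817 in fed Mcl1(L-/-) livers and 563 to 757 in fed WT livers. Between genotypes in the fast all 11 differences were positive (median 0.56), with 4 called higher, beside 3.32% of all probe sets. With fasting 4 were called lower in WT livers (median -0.59, 0 of 11 positive) and 2 in Mcl1(L-/-) livers (median -0.12, 4 of 11 positive). The 4 erythroid markers measured summed to 101 to 126 in fasted and 288 to 339 in fed Mcl1(L-/-) livers, and to 124 to 194 in fasted and 299 to 423 in fed WT livers. The part of these shifts in the results below was not tested, and in bulk liver RNA fewer cells of a type and less RNA per cell cannot be told apart.

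The promoters of 4 of these genes are shown because their genes stood for the patterns found below: Ogdh and Mdh2 rose with fasting in both genotypes, Fh1 had the highest rise, and Cs was the one gene that fell. Each sequence is the 250 bases before the annotated start, read 5′ to 3′ on the gene's strand from RefSeq (GRCm38.p6). Capitals mark matches to any of 8 searched motifs, on either strand. The windows are chr11:6291347-6291596 (plus strand, the most upstream of 6 annotated starts of Ogdh), chr5:135778399-135778648 (plus strand, Mdh2), chr1:175625636-175625885 (minus strand, Fh1) and chr10:128337477-128337726 (plus strand, Cs).
Ogdh: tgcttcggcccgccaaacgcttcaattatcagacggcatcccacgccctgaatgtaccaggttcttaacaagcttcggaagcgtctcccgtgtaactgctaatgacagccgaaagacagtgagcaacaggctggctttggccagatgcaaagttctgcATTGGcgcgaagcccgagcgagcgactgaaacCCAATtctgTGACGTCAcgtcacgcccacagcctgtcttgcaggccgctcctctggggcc
Mdh2: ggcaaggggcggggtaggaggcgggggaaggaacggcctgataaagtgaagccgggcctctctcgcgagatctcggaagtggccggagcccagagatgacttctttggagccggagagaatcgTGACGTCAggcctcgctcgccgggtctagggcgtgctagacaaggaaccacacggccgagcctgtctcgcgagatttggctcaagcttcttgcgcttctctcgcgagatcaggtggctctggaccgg
Fh1: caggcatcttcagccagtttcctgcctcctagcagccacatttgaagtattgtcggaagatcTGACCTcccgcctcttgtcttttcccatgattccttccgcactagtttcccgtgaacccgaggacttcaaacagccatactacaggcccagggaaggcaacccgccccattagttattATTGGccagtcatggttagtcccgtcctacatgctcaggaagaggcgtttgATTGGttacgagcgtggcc
Cs: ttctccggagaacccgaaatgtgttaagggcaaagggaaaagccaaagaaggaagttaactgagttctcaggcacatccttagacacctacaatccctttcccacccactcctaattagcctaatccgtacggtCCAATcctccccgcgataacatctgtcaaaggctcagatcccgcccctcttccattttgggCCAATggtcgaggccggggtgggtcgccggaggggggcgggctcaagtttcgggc

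Promoter windows were found for 8 of the 9 genes, all but Idh3a. The palindrome TGACGTCA, the full cAMP response element, stood in 2 of the 8 windows, at -51 to -44 in Ogdh and at -127 to -120 in Mdh2, counted back from -1 at the base before the start. It stood in 1.55% of all 32851 windows of this length. CCAAT, the box to which the factor NF-Y binds, stood in 5 of the 8 windows (Cs, Idh2, Ogdh, Suclg2 and Fh1) and in 33.8% of all windows. AGGTCA, the half-site of many nuclear receptors, stood in 2 of 8 (Sucla2 and Fh1) and in 14.0% of all windows. None of the 8 windows held TCAAGGTCA (the ERR element, which contains AGGTCA, 0.387% of all windows), GCGCATG (the core of NRF1 sites, 3.24%), CCGGAAG (an ETS site, 6.91%), CACGTG (an E-box, 6.02%) or AAGATGGC (a YY1 site, 1.56%). A match says only that these letters stand in the window.

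**Figure D1:**
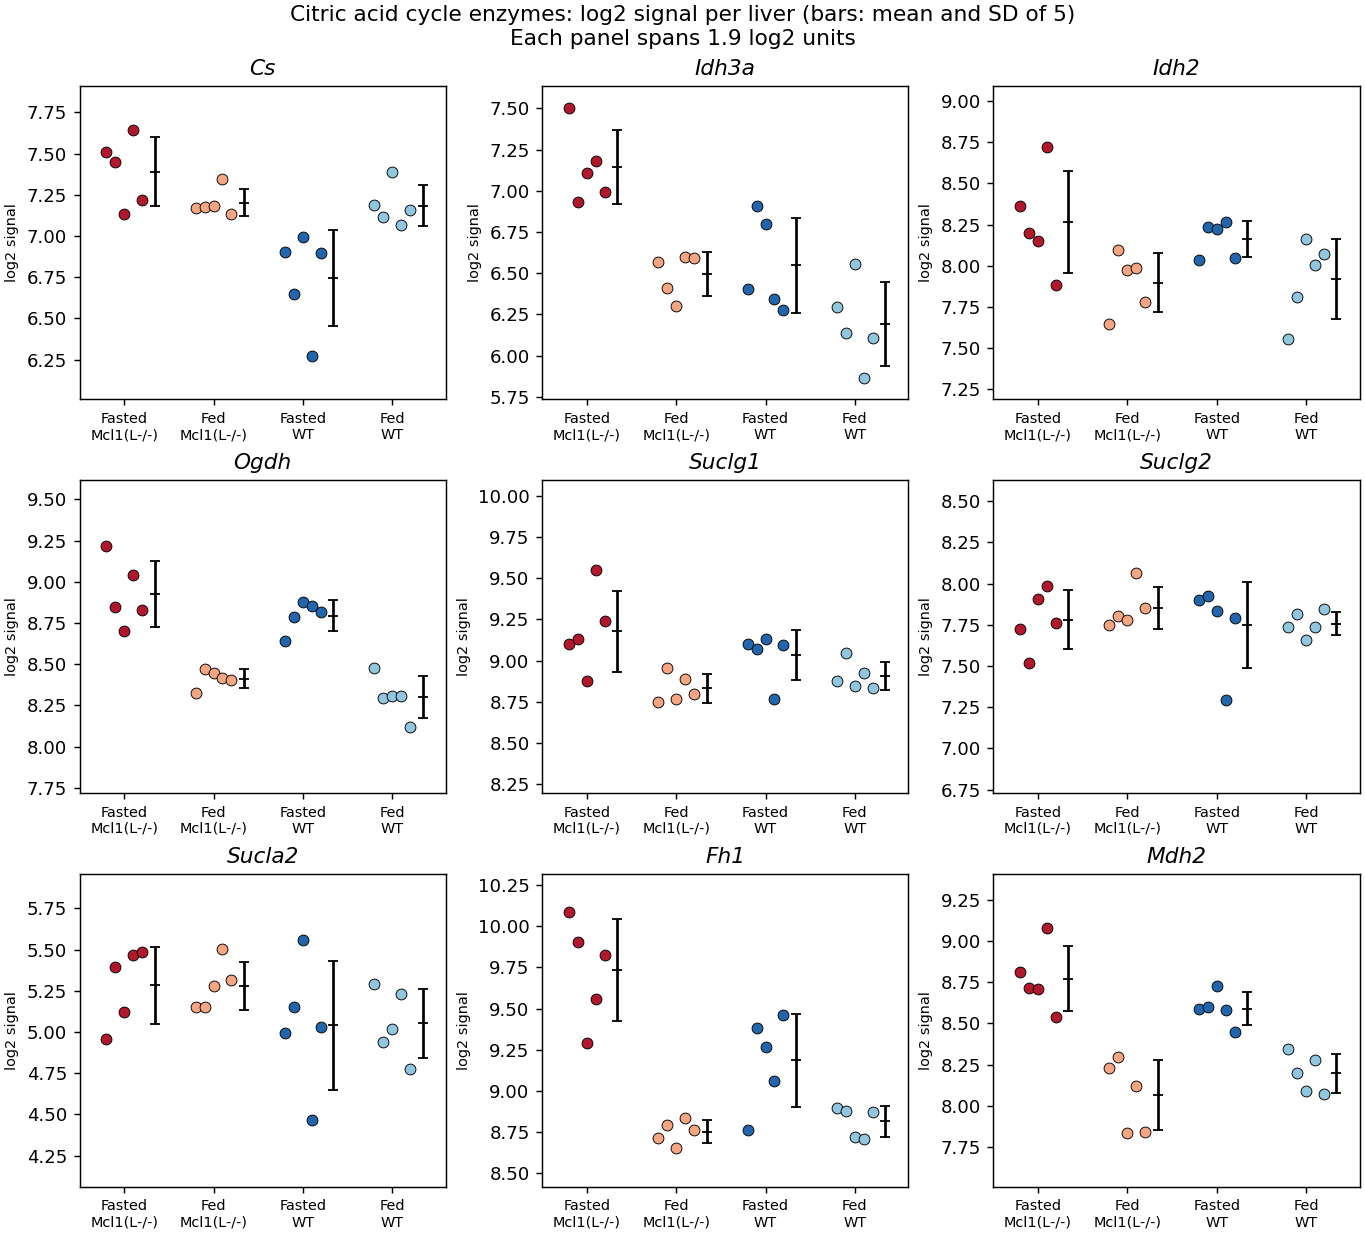
Log2 signal (vertical axis) of each of the 9 genes in each liver, 1 panel per gene and 1 point per liver, with groups from left to right fasted Mcl1(L-/-), fed Mcl1(L-/-), fasted WT and fed WT; bars are the mean and SD of 5. Fasted Mcl1(L-/-) livers lie above all fed Mcl1(L-/-) livers for Idh3a, Ogdh, Fh1 and Mdh2, and fasted WT livers lie below all fed WT livers for Cs.

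Fasting raised 5 of the 9 genes in Mcl1(L-/-) livers (Idh3a, Ogdh, Suclg1, Fh1 and Mdh2) and lowered none. Of all probe sets 14.4% were called in that comparison, 8.2% higher and 6.25% lower. This share and those below include dim probe sets, while the 9 genes were brighter than most. The share among equally bright probe sets is not given here. Fasted and fed Mcl1(L-/-) livers did not overlap for 4 of the 9, all higher in the fast, as for 5.88% of all probe sets (and 4.37% lower). At an unadjusted limma p under 0.05 there were 6 of the 9 and 24.2% of all probe sets. In WT livers fasting raised Ogdh and Mdh2 and lowered Cs, 3 of 9 genes, where 6.79% of all probe sets were called, 3.1% higher and 3.68% lower. Fasted and fed WT livers did not overlap for the same 3 genes, 2 of them higher (3.54% of all probe sets) and 1 lower (3.81%). At an unadjusted limma p under 0.05 there were 5 of the 9 and 17.3% of all probe sets. The median fasting difference of the 9 genes was 0.37 in Mcl1(L-/-) livers and 0.24 in WT livers on the log2 scale, beside -0.00 and 0.01 for all probe sets. Differences were positive for 8 of 9 genes in Mcl1(L-/-) livers and for 6 of 9 in WT livers.

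Cs encodes citrate synthase, which joins acetyl-CoA to oxaloacetate at the entry of the cycle. Its log2 signals were 7.51, 7.45, 7.13, 7.64 and 7.22 in fasted Mcl1(L-/-) livers, against 7.17, 7.18, 7.18, 7.34 and 7.13 in fed Mcl1(L-/-) livers. They were 6.90, 6.65, 7.0, 6.27 and 6.90 in fasted WT livers, against 7.19, 7.12, 7.39, 7.07 and 7.16 in fed WT livers. All 5 fasted WT livers lay below all 5 fed WT livers, with replicate 4 lowest, while the Mcl1(L-/-) groups overlapped. Cs fell by 0.44 in fasted WT livers (SE 0.13, limma adjusted p = 0.0338), that is 1.36-fold lower, and in Mcl1(L-/-) livers the fasting difference was 0.19 (95% interval -0.07 to 0.45, adjusted p = 0.411). The fall in WT livers was no longer called when any 1 of fasted WT replicates 2 and 4 or fed WT replicates 1, 2, 3 and 5 was left out. Without fasted WT replicate 4 it was -0.32 (adjusted p = 0.109), and with the replicate block its adjusted p was 0.0633.

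Isocitrate is oxidised to 2-oxoglutarate by the NAD-dependent enzyme, whose catalytic subunit is Idh3a, and by the NADP-dependent mitochondrial enzyme Idh2. Idh3a signals were 7.50, 6.93, 7.11, 7.18 and 6.99 in fasted Mcl1(L-/-) livers, against 6.57, 6.41, 6.30, 6.60 and 6.59 in fed Mcl1(L-/-) livers. They were 6.40, 6.91, 6.80, 6.34 and 6.27 in fasted WT livers, against 6.30, 6.13, 6.56, 5.86 and 6.11 in fed WT livers. The Mcl1(L-/-) groups did not overlap, and the WT groups did, with 3 of the fasted WT livers inside the fed range. Idh3a rose by 0.65 in fasted Mcl1(L-/-) livers (1.57-fold, SE 0.14, limma adjusted p = 0.00219). In WT livers the difference was 0.36 (95% interval 0.06 to 0.65, adjusted p = 0.168). Idh2 averaged 8.26 ± 0.31 in fasted and 7.90 ± 0.18 in fed Mcl1(L-/-) livers, and 8.16 ± 0.11 in fasted and 7.92 ± 0.24 in fed WT livers (SD, n = 5 each). Its ranges overlapped in both genotypes, and its fasting differences of 0.37 and 0.24 were not called (adjusted p = 0.0818 and 0.397). Without fasted Mcl1(L-/-) replicate 5 the Idh2 difference in Mcl1(L-/-) livers was 0.46 (adjusted p = 0.0265), and without replicates 3 and 4 of that group it was 0.25 (0.300).

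Ogdh is the first subunit of the 2-oxoglutarate dehydrogenase complex, which forms succinyl-CoA. Its signals were 9.22, 8.85, 8.70, 9.04 and 8.83 in fasted Mcl1(L-/-) livers, against 8.32, 8.47, 8.45, 8.42 and 8.41 in fed Mcl1(L-/-) livers. They were 8.64, 8.78, 8.88, 8.86 and 8.82 in fasted WT livers, against 8.48, 8.30, 8.31, 8.31 and 8.12 in fed WT livers. In both genotypes every fasted liver lay above every fed liver. The rise was 0.51 in Mcl1(L-/-) livers (1.43-fold, SE 0.10, limma adjusted p = 0.000722) and 0.49 in WT livers (1.41-fold, SE 0.10, adjusted p = 0.00244). Both calls held without any 1 of the 20 livers.

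Succinyl-CoA ligase turns succinyl-CoA into succinate and makes a nucleoside triphosphate. Its alpha subunit, Suclg1, pairs with either beta subunit, Suclg2 in the GTP-forming enzyme or Sucla2 in the ATP-forming enzyme. Suclg1 signals were 9.10, 9.13, 8.88, 9.55 and 9.24 in fasted Mcl1(L-/-) livers, against 8.75, 8.96, 8.77, 8.89 and 8.80 in fed Mcl1(L-/-) livers. The groups overlapped through fasted replicate 3, which lay below fed replicates 2 and 4. Suclg1 rose by 0.35 (1.27-fold, SE 0.11, limma adjusted p = 0.0345), and in WT livers the difference was 0.13 (95% interval -0.10 to 0.35, adjusted p = 0.635). The rise was no longer called without any 1 of fasted Mcl1(L-/-) replicates 2, 4 and 5 or fed Mcl1(L-/-) replicates 1, 3 and 5. It was 0.25 (adjusted p = 0.116) without fasted Mcl1(L-/-) replicate 4, its adjusted p was 0.055 with the replicate block, and with the Mcl1(L-/-) groups fitted alone it was 0.0914.

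Neither beta subunit was called for fasting. Suclg2 averaged 7.78 ± 0.18 in fasted and 7.85 ± 0.13 in fed Mcl1(L-/-) livers, and 7.75 ± 0.26 in fasted and 7.76 ± 0.07 in fed WT livers (SD, n = 5 each). The fasting differences of Suclg2 were -0.07 (95% interval -0.31 to 0.17) in Mcl1(L-/-) livers and -0.01 (-0.25 to 0.23) in WT livers. Sucla2 averaged 5.28 ± 0.23 in fasted and 5.28 ± 0.15 in fed Mcl1(L-/-) livers, and 5.04 ± 0.39 in fasted and 5.05 ± 0.21 in fed WT livers. For Sucla2 the 95% intervals ran from -0.32 to 0.33 in Mcl1(L-/-) livers and from -0.33 to 0.31 in WT livers. A change within these limits is not excluded. The limits are unadjusted, so a somewhat larger change could also miss a call over all probe sets.

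Fh1, fumarate hydratase, converts fumarate to malate. Its signals were 10.08, 9.90, 9.29, 9.56 and 9.82 in fasted Mcl1(L-/-) livers, against 8.72, 8.79, 8.65, 8.84 and 8.77 in fed Mcl1(L-/-) livers. They were 8.76, 9.38, 9.26, 9.06 and 9.46 in fasted WT livers, against 8.90, 8.88, 8.72, 8.71 and 8.87 in fed WT livers. The Mcl1(L-/-) groups were far apart, with fasted replicate 3 nearest to the fed livers, and in WT livers fasted replicate 1 lay inside the fed range while the other 4 lay above it. Fh1 rose by 0.98 in fasted Mcl1(L-/-) livers (1.97-fold, SE 0.14, limma adjusted p = 1.49e-05), the highest fasting difference of the 9 genes, and by 1.18 without replicates 3 and 4 of that group. In WT livers the difference was 0.37 (95% interval 0.09 to 0.65, adjusted p = 0.118). It was called only without fasted WT replicate 1 (0.48, adjusted p = 0.0285).

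Mdh2, mitochondrial malate dehydrogenase, closes the cycle by making oxaloacetate. Its signals were 8.81, 8.72, 8.71, 9.08 and 8.54 in fasted Mcl1(L-/-) livers, against 8.23, 8.30, 7.84, 8.12 and 7.84 in fed Mcl1(L-/-) livers. They were 8.59, 8.60, 8.73, 8.58 and 8.45 in fasted WT livers, against 8.35, 8.20, 8.09, 8.28 and 8.07 in fed WT livers. Fasted and fed livers did not overlap in either genotype. Mdh2 rose by 0.71 in Mcl1(L-/-) livers (1.63-fold, SE 0.11, limma adjusted p = 8.76e-05) and by 0.39 in WT livers (1.31-fold, SE 0.11, adjusted p = 0.0365). The WT call was lost without any 1 of fasted WT replicates 1, 2, 3 and 4 or fed WT replicates 2, 3, 4 and 5, with an adjusted p of up to 0.102.

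The livers themselves differed in how far the 9 genes stood out together. Each gene was centred on its mean over the 20 livers and the median of the 9 was taken in each liver. This median lay between 0.09 and 0.51 in fasted Mcl1(L-/-) livers and between -0.19 and -0.03 in fed Mcl1(L-/-) livers, without overlap. It lay between -0.22 and 0.17 in fasted WT livers and between -0.25 and -0.06 in fed WT livers, which overlapped. Among fasted Mcl1(L-/-) livers replicate 4 was highest for 5 of the 9 genes and replicate 3 lowest for 4. Among fasted WT livers replicate 3 was highest for 5 genes and replicate 4 lowest for 4.

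**Figure D2:**
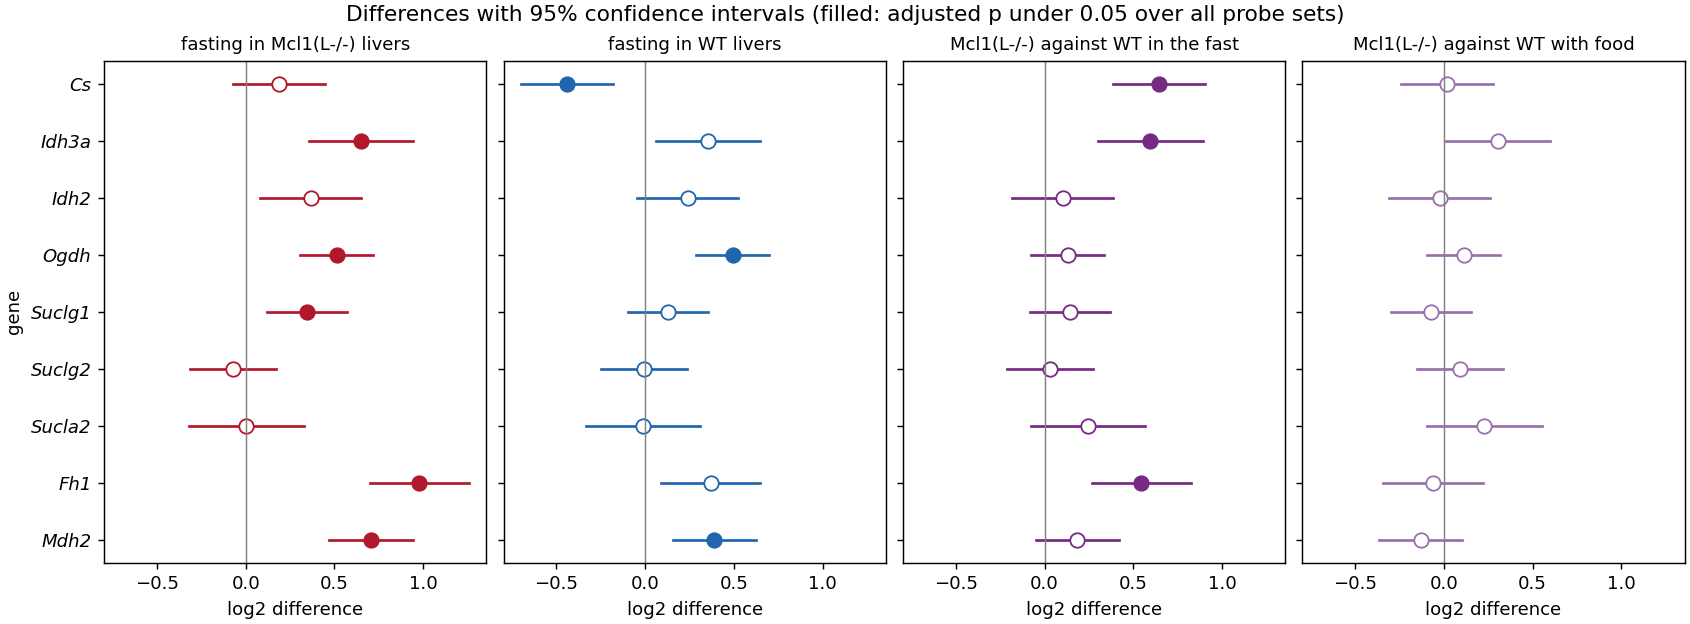
Log2 differences (horizontal axis) of the 9 genes (rows) for fasting in Mcl1(L-/-) livers, fasting in WT livers, Mcl1(L-/-) against WT in the fast and Mcl1(L-/-) against WT with food, with 95% confidence intervals from limma; filled points have an adjusted p under 0.05. The panels hold 5, 3, 3 and 0 filled points, and Cs in fasted WT livers is the only filled point below 0.

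Fasted livers of the 2 genotypes differed in 3 of the 9 genes. Cs, Idh3a and Fh1 were higher in fasted Mcl1(L-/-) livers than in fasted WT livers, where 4.99% of all probe sets were called, 3.32% higher and 1.67% lower. The groups did not overlap for 2 of the 9, both higher, as for 2.54% of all probe sets (and 1.36% lower), and an unadjusted limma p under 0.05 was reached by 3 of the 9 and 18.3% of all probe sets. Higher calls made up 66.5% of all calls, 76.4% with each array centred on its median and 55% with quantile normalisation. The median difference of the 9 genes was 0.18, beside -0.02 for all probe sets, and all 9 differences were positive. This comparison shares its fasted livers with the fasting comparisons above, so they are not independent of each other. Cs was 0.65 higher (1.57-fold, SE 0.13, limma adjusted p = 0.00476), and its 5 fasted Mcl1(L-/-) livers, at 7.13 or more, lay above all fasted WT livers, at 7.0 or less. Idh3a was 0.60 higher (1.51-fold, SE 0.14, adjusted p = 0.0172), also without overlap. Fh1 was 0.55 higher (1.46-fold, SE 0.14, adjusted p = 0.0215), and fasted Mcl1(L-/-) replicate 3 at 9.29 lay below fasted WT replicates 2 and 5.

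The call of Cs held without any 1 of the 20 livers, with differences of 0.53 to 0.71. That of Idh3a was lost without fasted Mcl1(L-/-) replicate 1 (limma adjusted p = 0.0562) and with the fasted groups fitted alone (0.0615). That of Fh1 was lost without any 1 of fasted Mcl1(L-/-) replicates 1, 2 and 5 or fasted WT replicates 1 and 4 (adjusted p up to 0.0671), and with the fasted groups fitted alone (0.109). Without fasted Mcl1(L-/-) replicates 3 and 4 together Fh1 was 0.75 higher. The other 6 genes differed by 0.03 for Suclg2, 0.10 for Idh2, 0.13 for Ogdh, 0.14 for Suclg1, 0.18 for Mdh2 and 0.24 for Sucla2, none of them called. Sucla2 had the widest interval of these, -0.08 to 0.57.

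With food, none of the 9 genes was called between Mcl1(L-/-) and WT livers, in a comparison where 0.036% of all probe sets were called, 0.0225% higher and 0.0135% lower. At an unadjusted p under 0.05 limma gave 1 of the 9, Idh3a, and 6.44% of all probe sets. Idh3a averaged 6.49 ± 0.13 in fed Mcl1(L-/-) livers and 6.19 ± 0.26 in fed WT livers (SD, n = 5 each), a difference of 0.30 (unadjusted p = 0.0448, adjusted p = 0.765 by limma). The other differences ran from -0.13 for Mdh2 to 0.23 for Sucla2. The fed groups overlapped for each of the 9 genes, while 0.806% of all probe sets were higher and 0.766% lower in every fed Mcl1(L-/-) liver than in every fed WT liver.

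**Figure D3:**
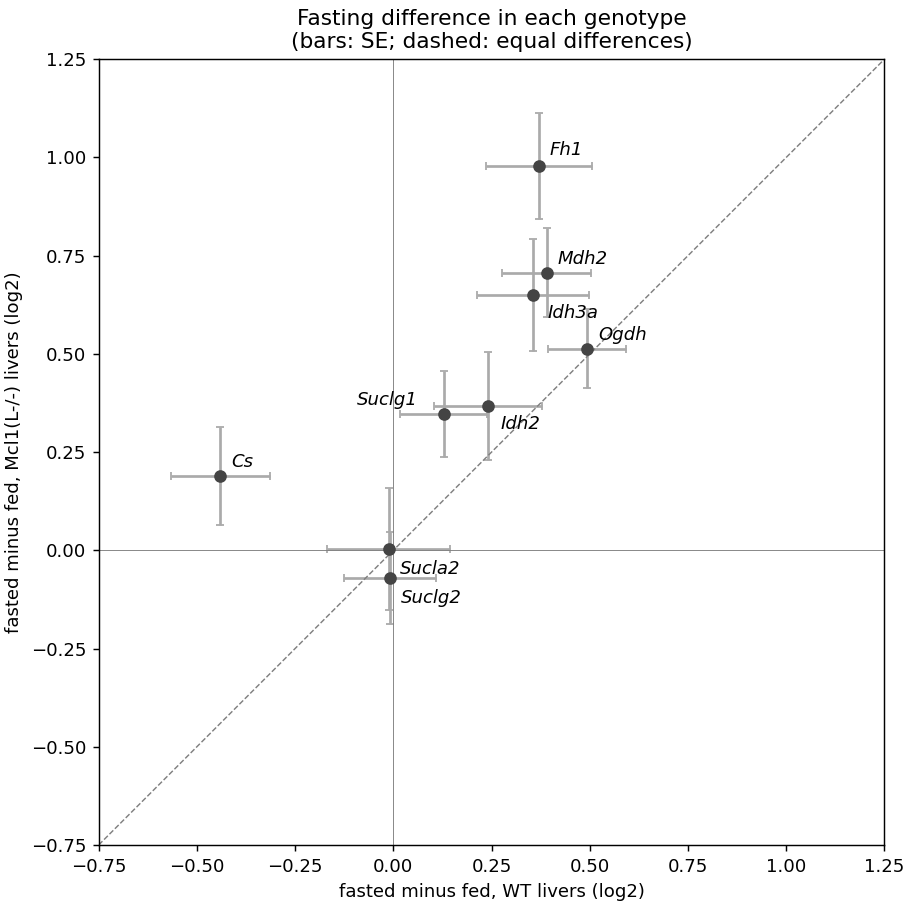
Fasting difference of each of the 9 genes in Mcl1(L-/-) livers (vertical axis) against that in WT livers (horizontal axis), both as fasted minus fed in log2 units, with standard errors as bars and a dashed line where the differences are equal. Cs (0.19 against -0.44) and Fh1 (0.98 against 0.37) stand farthest above the line, and Ogdh (0.51 against 0.49) lies next to it.

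Whether fasting acted differently in the 2 genotypes was tested by the interaction, the fasting difference in Mcl1(L-/-) livers minus that in WT livers. None of the 9 genes was called, where 0.135% of all probe sets were (0.0811% positive and 0.054% negative), so that 60% of these calls were positive (71.1% with arrays centred on their median, 48.6% with quantile normalisation). At an unadjusted p under 0.05 limma gave 2 of the 9, Cs and Fh1, and 11.2% of all probe sets. The interaction was 0.63 for Cs (SE 0.18, 95% interval 0.26 to 1.0, adjusted p = 0.139) and 0.61 for Fh1 (SE 0.19, 0.21 to 1.0, adjusted p = 0.195). Mdh2 followed with 0.32 and Idh3a with 0.30 (adjusted p = 0.473 and 0.619). For Ogdh it was 0.02 and for Sucla2 0.02. Without fasted Mcl1(L-/-) replicate 3 the interaction of Fh1 was 0.72 (limma adjusted p = 0.0411), and without replicates 3 and 4 it was 0.81 (limma adjusted p = 0.00991). Since replicates 3 and 4 were set apart by the same data, and replicate 3 had the lowest Fh1 signal of its group, neither fit is independent support for an interaction. The same holds for such fits of other genes below.

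Genes that share a step were also compared within each liver, which removes any shift shared by the whole array. The difference of Idh2 minus Idh3a, the NADP-dependent against the NAD-dependent enzyme, averaged 1.12 ± 0.29 in fasted Mcl1(L-/-) livers and 1.62 ± 0.24 in fasted WT livers (SD, n = 5 each). The genotype difference of -0.49 had an exact permutation p of 0.0317 (two-sided, smallest possible 0.00794), and adjusted over the 8 such tests it was 0.254. Fasted minus fed, it was -0.28 in Mcl1(L-/-) livers and -0.11 in WT livers (adjusted exact permutation p = 0.423 and 0.671). For Sucla2 minus Suclg2, the ATP-forming against the GTP-forming beta subunit, the group differences ran from -0.00 for fasting in WT livers to 0.21 between genotypes in the fast (adjusted exact permutation p from 0.476 to 1). None of the 8 passed. Since probes differ in brightness, the size of either difference is not a ratio of transcripts.

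Other subunits of the cycle also rose with fasting. Of 9 listed, 8 were measured, and 5 rose with fasting in Mcl1(L-/-) livers (median 0.39) and 1 in WT livers (median 0.20). The fasting counts of this and the following lists stand beside the shares over all probe sets. These were 8.2% called higher and 6.25% lower in Mcl1(L-/-) livers, and 3.1% higher and 3.68% lower in WT livers. Idh3g, a regulatory subunit of the enzyme of Idh3a, rose by 0.57 in Mcl1(L-/-) livers and by 0.51 in WT livers (limma adjusted p = 2.04e-04 and 0.00168). Dlst and Dld, the partners of Ogdh, rose by 0.53 and 0.44 in Mcl1(L-/-) livers, as did Sdhb and Sdhd of succinate dehydrogenase. Sdha, its catalytic subunit, differed by -0.05 and was not called. None of the 4 assembly factors of succinate dehydrogenase was called in either genotype, the farthest from 0 being Sdhaf2 at -0.33 in Mcl1(L-/-) livers (adjusted p = 0.0665) and Sdhaf4 at -0.27 in WT livers (adjusted p = 0.252). Sdhaf2 was called in Mcl1(L-/-) livers with quantile normalisation (0.0277), without dim probe sets (0.0409), without fasted Mcl1(L-/-) replicate 4 (-0.43, 0.00973) and without replicates 3 and 4 of that group (-0.44, 0.0141). Dld was 0.34 higher in fasted Mcl1(L-/-) than in fasted WT livers (adjusted p = 0.0455). That call held in 6 of 20 fits without 1 liver, those without fasted Mcl1(L-/-) replicate 3, fed Mcl1(L-/-) replicates 3 or 4, fasted WT replicate 2 or fed WT replicates 1 or 4, and its adjusted p otherwise reached 0.123. It was lost too without fasted Mcl1(L-/-) replicates 3 and 4 together (0.103), with array weights (0.0858) and with quantile normalisation (0.0806). Of 9 settings other than leaving out 1 liver, 4 kept the adjusted p of Dld under 0.05, and the highest was 0.123.

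Pyruvate enters the cycle as acetyl-CoA through pyruvate dehydrogenase. Of 12 measured genes of pyruvate entry, 2 rose and 1 fell with fasting in Mcl1(L-/-) livers (median 0.16), and none rose and 2 fell in WT livers (median 0.10). Among all probe sets 14.4% were called in Mcl1(L-/-) livers and 6.79% in WT livers. Pdk4, a kinase that switches off pyruvate dehydrogenase, rose by 2.93 in Mcl1(L-/-) livers (7.65-fold, limma adjusted p = 1.49e-05). In WT livers Pdk4 differed by 0.81 (adjusted p = 0.311), and it was 2.19 higher in fasted Mcl1(L-/-) than in fasted WT livers (adjusted p = 0.0035). Without fasted Mcl1(L-/-) replicates 3 and 4 these Pdk4 differences were 3.75 for fasting in Mcl1(L-/-) livers and 3.0 between genotypes. Its interaction was 2.12 (adjusted p = 0.119), called without fasted Mcl1(L-/-) replicate 3 (2.45, 0.0209) and without replicates 3 and 4 (2.94, 0.00051). Mpc1, a subunit of the mitochondrial pyruvate carrier, rose by 0.61 in Mcl1(L-/-) livers. Pdhb, a subunit of pyruvate dehydrogenase, fell by 0.36 in WT livers, and Pdk1 fell by 0.65. Pdp2, a phosphatase that switches pyruvate dehydrogenase on, fell by 0.47 in Mcl1(L-/-) livers. The call of Pdhb was lost without any 1 of fasted WT replicates 1 to 4 or fed WT replicates 1, 2, 3 and 5 (adjusted p up to 0.125), and with quantile normalisation (0.0548). Of 9 settings other than leaving out 1 liver, 6 kept the adjusted p of Pdhb under 0.05, and the highest was 0.0751. That of Pdk1 was lost without any 1 of fasted WT replicates 1, 2, 4 and 5 or fed WT replicates 1, 3, 4 and 5 (up to 0.109). That of Pdp2 was lost without any 1 of fasted Mcl1(L-/-) replicates 2, 4 and 5 or fed Mcl1(L-/-) replicates 3, 4 and 5 (up to 0.123), without replicates 3 and 4 of the fasted group together (0.156), and with arrays centred on their median (0.0619). Of the 9 settings other than leaving out 1 liver, 6 kept the adjusted p of Pdp2 under 0.05.

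Genes that fill or drain the cycle gave 1 rise and 1 fall among 11 measured in Mcl1(L-/-) livers (median 0.11) and 4 rises in WT livers (median 0.28). The shares called over all probe sets were 14.4% in Mcl1(L-/-) livers and 6.79% in WT livers. Pcx, pyruvate carboxylase, rose by 0.79 in Mcl1(L-/-) livers and by 0.76 in WT livers. Pck1, the cytosolic PEP carboxykinase of gluconeogenesis, rose by 0.65 in WT livers (limma adjusted p = 8.90e-05) and differed by 0.13 in Mcl1(L-/-) livers (adjusted p = 0.501). Its interaction of -0.53 was not called (limma adjusted p = 0.101). With food Pck1 averaged 11.22 in Mcl1(L-/-) livers and 10.90 in WT livers, without overlap. That difference of 0.32 was not called either (limma adjusted p = 0.450). Mut, methylmalonyl-CoA mutase, rose by 0.47 in WT livers (adjusted p = 0.0305), a call lost without any 1 of fasted WT replicates 2 and 3 or fed WT replicates 2, 4 and 5 (up to 0.0921). Aldh4a1, which leads proline carbon to glutamate, fell by 0.80 in Mcl1(L-/-) livers.

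The list labelled cytosolic counterparts holds enzymes of the cytosol that act on intermediates of the cycle. Aco1, Idh1 and Mdh1 match steps of the cycle, while Acly, Me1 and Got1 do not. Of 6 measured, 1 rose and 3 fell in each genotype, with medians of -0.32 in Mcl1(L-/-) livers and -0.47 in WT livers. Over all probe sets 14.4% were called in Mcl1(L-/-) livers and 6.79% in WT livers. Got1, the cytosolic aspartate aminotransferase, rose by 2.16 in Mcl1(L-/-) livers (4.47-fold) and by 1.87 in WT livers (3.66-fold). Acly, which splits citrate for fat synthesis, fell by 2.0 in Mcl1(L-/-) livers and by 1.87 in WT livers. It was the 1 gene of these 8 lists called lower in fasted Mcl1(L-/-) than in fasted WT livers, at -0.58 (limma adjusted p = 0.0327), where 1.67% of all probe sets were called lower. That call was lost without any 1 of fasted Mcl1(L-/-) replicates 1, 2 and 5 or fasted WT replicates 1, 2 and 4 (up to 0.106), and with arrays centred on their median (0.0511). Of 9 settings other than leaving out 1 liver, 6 kept the adjusted p of Acly under 0.05, and the highest was 0.0618. Me1, malic enzyme, fell by 1.20 in WT livers (adjusted p = 0.000257) and differed by -0.23 in Mcl1(L-/-) livers (adjusted p = 0.565), where Aco1, the cytosolic aconitase, fell by 0.42. In WT livers Aco1 differed by -0.17 and was not called. Mdh1, the cytosolic malate dehydrogenase, was called in neither genotype (0.23 in Mcl1(L-/-) livers and 0.13 in WT livers). Idh1, the cytosolic NADP-dependent isocitrate dehydrogenase, fell by 1.21 in Mcl1(L-/-) livers and by 0.76 in WT livers, while Idh2 was not called in either. In WT livers the call of Idh1 was lost without any 1 of fasted WT replicates 3 and 4 or fed WT replicates 3 and 5 (limma adjusted p up to 0.0667). Slc25a1, the mitochondrial citrate carrier, fell by 0.76 and by 0.70, and was 1 of 2 carriers called among 6 measured in Mcl1(L-/-) livers, with Slc25a12, an aspartate-glutamate carrier, which rose by 0.55. Slc25a1 was the 1 carrier called in WT livers.

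Markers of mitochondrial content, that is pores, import proteins, chaperones, prohibitins and cytochrome c, rose with fasting in 10 of 13 cases in Mcl1(L-/-) livers (median 0.49) and in 2 of 13 in WT livers (median 0.17). Over all probe sets 8.2% were called higher in Mcl1(L-/-) livers and 3.1% in WT livers. Tomm20, an import receptor of the outer membrane, rose by 1.03 in Mcl1(L-/-) livers (2.05-fold) and by 0.47 in WT livers. The WT call was lost without any 1 of fasted WT replicates 1 and 3 or fed WT replicates 1 and 2 (limma adjusted p up to 0.0771). The interaction of Tomm20 was 0.56 (limma adjusted p = 0.213), called without fasted Mcl1(L-/-) replicate 3 (0.68, 0.0275) and without replicates 3 and 4 (0.75, 0.00835). Tomm40 and Timm23, of the import machinery, rose by 0.72 and 0.70 in Mcl1(L-/-) livers, and Phb2, a prohibitin, by 0.38 in WT livers. Of 15 measured regulators of mitochondrial biogenesis, 5 rose and 1, Ppara, fell in Mcl1(L-/-) livers (median 0.22), and 2 rose in WT livers (median 0.11). Ppargc1a, the coactivator PGC-1 alpha, rose by 1.64 in Mcl1(L-/-) livers (3.12-fold) and by 1.80 in WT livers (3.48-fold). Gabpb1 and Tfb2m, a transcription factor subunit and a mitochondrial transcription factor, rose by 0.93 and 0.76 in Mcl1(L-/-) livers. Ppara, a nuclear receptor for fatty acids, fell by 0.72 there (adjusted p = 0.0283), a call lost without any 1 of fasted Mcl1(L-/-) replicates 1, 2 and 5 or fed Mcl1(L-/-) replicates 3, 4 and 5 (up to 0.103), and with trend and robust moderation (0.0535). Of 9 settings other than leaving out 1 liver, 7 kept the adjusted p of Ppara under 0.05, and the highest was 0.0647. In WT livers Tfb1m rose by 0.83 (adjusted p = 0.0215), a call lost without any 1 of fasted WT replicates 3 and 5 or fed WT replicates 2, 4 and 5 (up to 0.0719). Between genotypes in the fast, Nrf1, a regulator of respiratory chain genes, was 0.71 higher in Mcl1(L-/-) livers (adjusted p = 0.0287) and Cycs, cytochrome c, 0.53 higher (adjusted p = 0.00994). The call of Nrf1 was lost without any 1 of fasted Mcl1(L-/-) replicates 1, 2 and 5 or fasted WT replicates 2, 3 and 4 (adjusted p up to 0.096), and that of Cycs with the fasted groups fitted alone (0.0652). Of 9 settings other than leaving out 1 liver, 7 kept the adjusted p of Nrf1 under 0.05, and the highest was 0.0538. Hspd1, a chaperone, was 0.33 higher (adjusted p = 0.0479), a call that held in 4 of 20 fits without 1 liver, those without fasted Mcl1(L-/-) replicate 3, fed Mcl1(L-/-) replicate 3 or fasted WT replicates 3 or 5 (otherwise up to 0.125), and that was lost with array weights (0.0696) and with quantile normalisation (0.0578). Of 9 settings other than leaving out 1 liver, 5 kept the adjusted p of Hspd1 under 0.05, and the highest was 0.160.

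In the lists with no call between fasted genotypes, the genes farthest from 0 were Oat, ornithine aminotransferase, at 0.39, Slc25a10, the dicarboxylate carrier, at -0.23 and Sdhaf2 at -0.12. With food and for the interaction, limma called no gene of these 8 lists on all 20 livers, beside 0.036% and 0.135% of all probe sets. With food the gene farthest from 0 in each list was Sdhc at -0.28, Sdhaf1 at 0.33, Pdk1 at -0.63, Oat at 0.41, Me1 at -0.76, Slc25a21 at 0.42, Polrmt at 0.41 and Hspa9 at -0.28. Me1 was called there only without fasted WT replicate 4 (adjusted p = 0.0367). For the interaction, besides Pdk4 and Tomm20, these were Dld at 0.38, Sdhaf1 at -0.26, Aldh4a1 at -0.53, Me1 at 0.97, Slc25a21 at -0.57 and Gabpb1 at 0.81. The interaction of Gabpb1 was called without fasted Mcl1(L-/-) replicate 3 (1.05, adjusted p = 0.0478) and without replicates 3 and 4 (1.22, adjusted p = 0.00823).

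**Figure D4:**
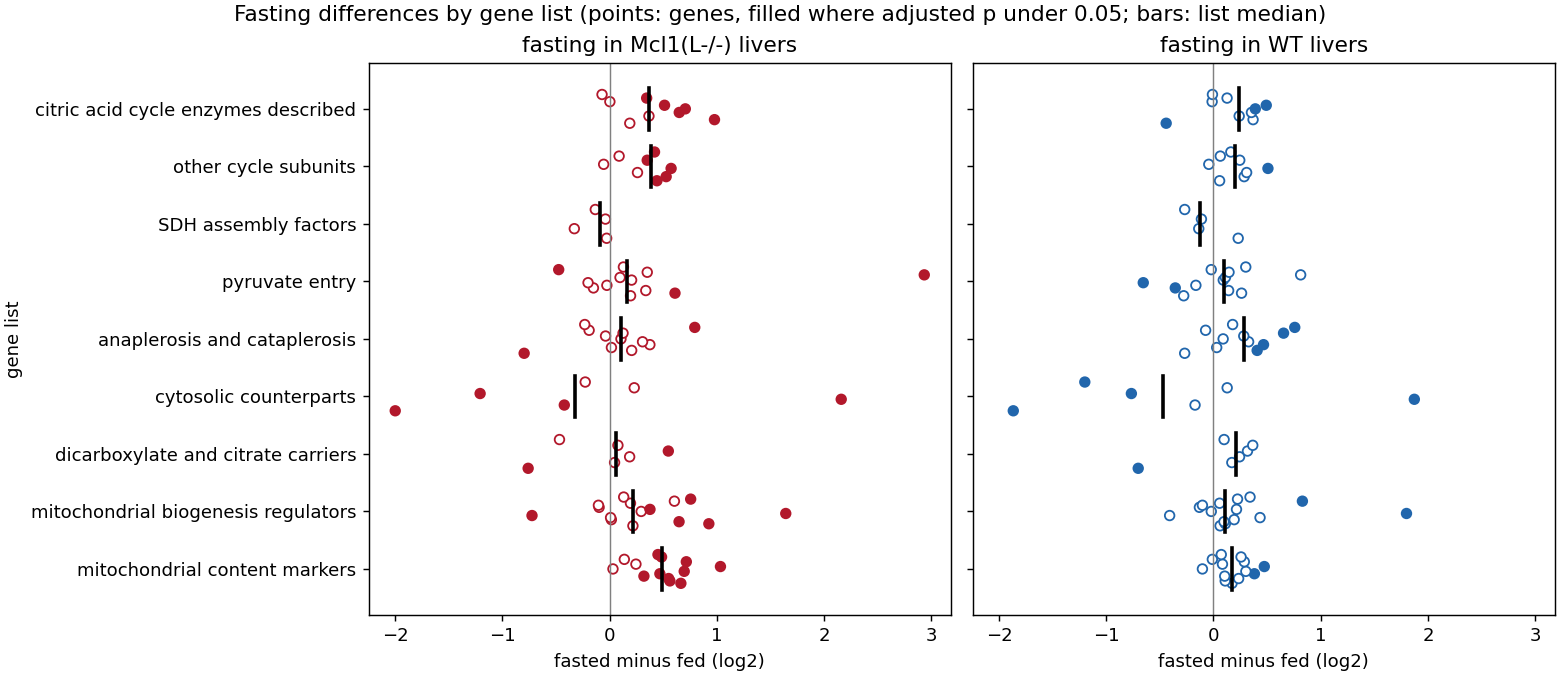
Fasting differences (horizontal axis, fasted minus fed in log2 units) of the 9 genes and of 8 lists of related genes (rows), in Mcl1(L-/-) livers (left) and WT livers (right); each point is a gene, filled where its adjusted p is under 0.05, and each bar is the median of its list. The medians are 0.37 and 0.24 for the 9 genes, 0.49 and 0.17 for the mitochondrial content markers and -0.32 and -0.47 for the list labelled cytosolic counterparts, which also holds Acly, Me1 and Got1.

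Probe sets with the most similar profile were sought by the root mean square difference, over the 20 livers, between their centred log2 signals and the median of the 9 genes. The nearest were Rab2a, a GTPase of the Golgi (0.0972), Atp5pb (0.0978) and Atp5b (0.104), both subunits of ATP synthase, Ndufs3 of complex I (0.103) and Sdhb of succinate dehydrogenase (0.105). Among the 9 genes Suclg1 lay closest to their median (0.114), followed by Ogdh (0.161), and Cs (0.281) and Fh1 (0.286) lay farthest. These distances describe the 20 livers, which share 1 normalisation, and carry no test. The pair of the 9 genes with the most similar profiles was Ogdh and Mdh2 (0.174), and the pair with the least similar was Suclg2 and Fh1 (0.481).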

How the data were processed

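Total RNA of 20 livers was hybridised to 1 Affymetrix array each after GeneChip WT PLUS labelling, per the labels' protocols. The deposited table holds log2 signals that the authors normalised, for which the submitters' processing notes name RMA and Partek 7.0. Its log base is not stated, and log2 is assumed from the range of 1.34 to 12.6 and the use of RMA. RMA brings the probe signals of all arrays to 1 distribution, which hides any change common to most transcripts. The deposited values per probe set still differ a little, with array medians of 3.35 to 3.47. Of 22206 probe sets, 19572 had 1 gene symbol, 0 several and 2634 none.

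Group means were fitted on the 20 arrays together with limma 3.58.1 (lmFit and eBayes, prior df 6.95) in R 4.3.3. P-values were adjusted over all probe sets (Benjamini-Hochberg) and called under 0.05. The number of arrays limits the precision: the median SE was 0.135 for a difference between groups and 0.190 for the interaction. The procedure was run on simulated data with independent values and, for each probe set, the same spread in all groups. That run does not cover correlated arrays or groups of unequal spread. The 9 genes and all lists were chosen with earlier results of these data known. Besides the 9, the text names by rule up to 3 called genes per list, direction and comparison, those with the largest change, or, in a list with no call, the gene that differed most. Sdha, Sdhb, Sdhd and the values of Pck1 and Me1 in Mcl1(L-/-) livers, of Pdk4 in WT livers and of Idh2 beside Idh1 were added after values were seen. So were the interaction and the fed values of Pck1, the values of Mdh1 and that of Aco1 in WT livers. Promoters come from RefSeq (GRCm38.p6), which may differ from the array annotation, and were searched in Python 3.11.15, which also drew the figures (matplotlib 3.10.9). Alternatives tried were median centring, quantile normalisation, trend and robust moderation, weights per array, leaving out dim probe sets, fits on the compared groups alone, the replicate block, a fold of at least 1.5, and leaving out livers.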

Additional observations from a re-analysis of the deposited data

Results flagged for a closer look

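In 3 of the 36 combinations of 9 genes and 4 groups, 1 liver stood far from the other 4 of its group (Dixon's test), where chance gives about 1 in 20. Cs was 7.34 in fed Mcl1(L-/-) replicate 4, against 7.13 to 7.18 in the other 4 fed Mcl1(L-/-) livers. Fasted WT replicate 4 had a Suclg1 signal of 8.77, below the 9.07 to 9.13 of the rest of that group. The same liver had a Suclg2 signal of 7.29, below the 7.79 to 7.93 of the rest.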

How the results depend on the processing

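The counts of called genes among the 9 were 5 for fasting in Mcl1(L-/-) livers, 3 for fasting in WT livers, 3 between genotypes in the fast, 0 with food and 0 for the interaction. In this order 14.4%, 6.79%, 4.99%, 0.036% and 0.135% of all probe sets were called. For the other settings that share is not given here, so their counts do not show whether the 9 genes moved more than the array. Leaving out 1 liver at a time gave 4 to 5, 1 to 3, 1 to 3, 0 to 0 and 0 to 1. With a fold of at least 1.5 required as well, fasting gave 3 in Mcl1(L-/-) livers and 0 in WT livers. Fitting the compared groups alone gave 1 (Cs) between genotypes in the fast, and leaving out fasted Mcl1(L-/-) replicates 3 and 4 gave 1 (Fh1) for the interaction. With trend and robust moderation Idh2 was called for fasting in Mcl1(L-/-) livers (adjusted p = 0.047). Fitting the WT groups alone lost Cs (adjusted p = 0.0648). Median centring, quantile normalisation, array weights and leaving out dim probe sets changed no call of the 9 genes.

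Differences that changed sign were near 0 and uncalled. With quantile normalisation Suclg2 was -0.0049 between genotypes in the fast and the Ogdh interaction -0.014. With array weights Sucla2 was -0.0048 for fasting in Mcl1(L-/-) livers, 0.029 in WT livers and -0.033 for the interaction, and Suclg2 was 0.033 for fasting in WT livers and -0.011 between genotypes in the fast. Without fasted Mcl1(L-/-) replicates 3 and 4 Sucla2 was -0.0024 for fasting in Mcl1(L-/-) livers, and between genotypes in the fast Idh2 was -0.013 and Suclg2 -0.079. Leaving out 1 liver gave, for Sucla2, -0.0468 to 0.0850 (fasting in Mcl1(L-/-) livers), -0.1411 to 0.1320 (fasting in WT livers) and -0.1287 to 0.1445 (interaction). For Suclg2 it gave -0.0528 to 0.1057 (fasting in WT livers), -0.0833 to 0.0958 (genotypes in the fast) and -0.1755 to 0.0036 (interaction). It gave -0.0118 to 0.1971 for Idh2 between genotypes in the fast and -0.1157 to 0.0372 with food, -0.0185 to 0.0685 for Cs with food and -0.0525 to 0.0756 for the Ogdh interaction. The group difference in Sucla2 minus Suclg2 ran from -0.0188 to 0.1459 (fasting in Mcl1(L-/-) livers) and -0.1107 to 0.0621 (fasting in WT livers). The cause was not tested.

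Livers with the same replicate number did not deviate together: 1 of 30 same-number pairs correlated above 0.1 (-0.190 to 0.166), and 3 of 20 livers correlated best with their own number. With the replicate block the counts were 4, 2, 3, 0 and 0. Each of the 9 genes has 1 probe set, so a choice among probe sets could not be varied, and the interaction uses all 4 groups, so it was not fitted on fewer.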
